A study of Mus musculus with 24 samples.

Results

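The 6 genes that encode the mouse enzymes writing and oxidising DNA cytosine methylation, Dnmt1, Dnmt3a, Dnmt3b, Tet1, Tet2 and Tet3, were followed across 24 microarrays of sorted blood progenitors. The members were all probe sets that the platform annotation gives to 1 of these symbols and to no other gene, which left 17 of the 34945 probe sets tested and 6 of 18193 genes. Dnmt1 had 3 probe sets, Dnmt3a had 5, Dnmt3b had 2, Tet1 had 4, Tet2 had 2 and Tet3 had 1. The study compared Ikaros null mice (KO) with wild-type mice (WT) in 4 populations, with 3 arrays labelled as biological replicates in each of the 8 groups. KO mice came from the I74 line, of C57BL/6 x 129SV background. WT mice were C57BL/6 x C3H and belonged to the B-p-GFP-C line. Cells of both genotypes carried a GFP reporter driven by Ikaros regulatory sequence, on which they were sorted. The populations were LSK GFPneg-lo, which the labels call HSC (stem cell), LSK GFPhi (LMPP, a lymphoid-primed multipotent progenitor), LK GFPneg (MEP, a megakaryocyte and erythroid progenitor) and LK GFPhi (GMP, a granulocyte and monocyte progenitor). LSK cells lack lineage markers and carry Sca-1 and Kit, and LK cells carry Kit without Sca-1. The labels do not say how many animals gave each array, and the strain background of the lines cannot be told apart from the genotype.

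DNA methylation in mammals is placed mostly on cytosines that are followed by guanine. Dnmt3a and Dnmt3b place it on unmethylated DNA, and Dnmt1 copies it onto the new strand after replication. The Tet proteins are dioxygenases that oxidise 5-methylcytosine to 5-hydroxymethylcytosine and further, which opens a path back to the unmethylated base. In blood, Dnmt3a and Tet2 are known as brakes on stem cell self-renewal and are often mutated in human myeloid disease, and Dnmt1 is needed for stem cells and their progeny to keep their lineage potential. Ikaros, the product of Ikzf1, is a zinc finger protein that binds DNA and works with chromatin remodelling complexes in lymphoid development.

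The promoter sequences are shown because CG dinucleotides are the bases these enzymes act on, and because 4 of the 10 RefSeq windows of the 6 genes hold the letters TGGGAA, the core of the Ikaros recognition motif. Each window runs from 250 bases before to 50 after an annotated start on GRCm38.p6, and all 6 genes had at least 1. Searched on both strands, TGGGAA was in 25.6% of the 32851 windows of all genes. A match is a description of the letters only. The Tet2 window, chr3:133544341-133544640 on the minus strand, held 57 CG dinucleotides, against a median of 7 over all windows, and 99.9% of windows held as many or fewer. The Dnmt3b window, chr2:153649199-153649498 on the plus strand, held 30 CG. The third window, chr12:3891494-3891793 on the plus strand, lies at a start inside Dnmt3a, and TGGGAA stood in it once. Capitals mark CG in the Tet2 and Dnmt3b windows and TGGGAA in the Dnmt3a window, each read 5′ to 3′ on the gene's strand:
Tet2: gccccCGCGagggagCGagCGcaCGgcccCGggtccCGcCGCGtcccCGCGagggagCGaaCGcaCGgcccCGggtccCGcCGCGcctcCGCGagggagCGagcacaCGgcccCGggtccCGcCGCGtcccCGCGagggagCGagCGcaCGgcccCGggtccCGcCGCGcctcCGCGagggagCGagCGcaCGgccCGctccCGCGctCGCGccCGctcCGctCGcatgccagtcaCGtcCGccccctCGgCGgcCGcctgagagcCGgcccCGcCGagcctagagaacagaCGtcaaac
Dnmt3b: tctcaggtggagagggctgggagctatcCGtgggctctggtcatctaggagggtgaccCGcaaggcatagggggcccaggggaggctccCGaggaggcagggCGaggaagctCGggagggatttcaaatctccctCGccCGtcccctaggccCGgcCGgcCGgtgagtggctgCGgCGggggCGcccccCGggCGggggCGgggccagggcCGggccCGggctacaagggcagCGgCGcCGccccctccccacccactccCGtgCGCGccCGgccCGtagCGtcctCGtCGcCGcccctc
Dnmt3a: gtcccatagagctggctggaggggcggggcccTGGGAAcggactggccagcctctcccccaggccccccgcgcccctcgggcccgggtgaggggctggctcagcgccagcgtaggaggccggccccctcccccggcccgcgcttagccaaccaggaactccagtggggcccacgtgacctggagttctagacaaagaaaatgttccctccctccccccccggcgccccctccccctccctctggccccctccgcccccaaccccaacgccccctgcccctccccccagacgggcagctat
The other windows with TGGGAA belonged to Dnmt1 (1 of its 3 windows), Tet1 and Tet3. CG counts over the 10 windows ran from 2 in a Dnmt1 window to the 57 of Tet2.

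Values are log2 signals after RMA, a summary of the probes of each probe set, and a difference of 1 on this scale is a doubling. Brightness depends on the probes, so levels are compared across groups within a probe set and never between probe sets. Ikzf1 checked the genotype: its signal was 6.51 to 8.88 on the 12 KO arrays, against 10.99 to 11.99 on the 12 WT arrays. The WT populations were checked against the markers of their labels. Erythroid genes averaged 11.32 to 11.44 in LK GFPneg, granulocyte and monocyte progenitor genes 12.09 to 12.46 in LK GFPhi, early lymphoid genes 9.98 to 10.12 in LSK GFPhi and stem cell genes 9.92 to 10.25 in LSK GFPneg-lo, each the highest of the 4 WT populations. The megakaryocyte genes of the MEP label did not follow: 6 of them averaged 7.90 to 8.12 in WT LK GFPneg, against 8.62 to 9.30 in WT LSK GFPneg-lo, with 0 called higher and 3 lower. The Y-linked gene Eif2s3y, whose signal follows the sex of the animals, was 3.99 to 8.33 on KO arrays and 7.88 to 10.4 on WT arrays. Its group means were 5.11 to 6.44 in KO and 8.79 to 9.57 in WT. The labels do not give the sex of the animals, and its part cannot be fully told apart from that of the genotype. The KO LK GFPhi array numbered 3 stood apart: its mean eosinophil signal was 9.80, beside 6.83 and 8.05 on the other KO arrays of that population and 5.46 to 5.69 on the WT arrays. Named genes called between KO and WT in LK GFPhi by the fit of all arrays are given with and without it. Calls made only under other settings, and counts over gene lists, are given with it. In sorted bulk samples, fewer cells with a transcript and less of it per cell cannot be told apart.

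The widest differences among the 6 genes lay between populations. Both probe sets of Dnmt3b, and most of those of Dnmt3a and Tet1, had lower means in LK GFPneg than in the LSK populations in both genotypes. Part of the Dnmt3a and Tet1 differences was not called. Tet2 signal was highest in WT LK GFPhi. In WT, 8 of the 17 probe sets were lower in LK GFPneg than in LSK GFPneg-lo and 0 were higher (limma, adjusted p under 0.05), where 24% of all probe sets were called and 11.5% were called lower. The median difference of the 17 was −0.70, beside 0.04 over all probe sets. The 8 belonged to Dnmt3a (3), Dnmt3b (2), Tet1 (2) and Tet2 (1). In KO, 7 were lower in LK GFPneg than in LSK GFPneg-lo and 0 were higher, with 19.6% of all probe sets called and 10.7% called lower. In both genotypes 6 were called, which is 85.7% of the KO calls and 75.0% of the WT calls. The overlap of KO and WT calls over all probe sets was not counted, so these shares are not read as a trait of the 6 genes.

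LK GFPhi against LK GFPneg gave 7 higher member probe sets and 0 lower in WT (background 15.1%, higher 7.83%) and 4 higher and 0 lower in KO (background 20.5%, higher 9.93%). LSK GFPhi against LK GFPneg gave 6 higher in KO (background 22.7%, higher 10.8%) and 7 higher in WT (background 25.5%, higher 11.3%). These comparisons share the LK GFPneg arrays. WT LK GFPhi against WT LSK GFPneg-lo gave 2 higher and 2 lower (background 10.1%, higher 4% and lower 6.11%), and WT LK GFPhi against WT LSK GFPhi gave 1 higher and 1 lower (background 3.15%, higher 1.49% and lower 1.66%). WT LSK GFPhi against WT LSK GFPneg-lo gave 0 calls by limma (background 3.18%), with 0 at an unadjusted p under 0.05. A fit that took the replicate number as a block, below called the replicate block, counted 8 in WT LK GFPhi against WT LSK GFPneg-lo, 12 in WT LSK GFPhi against WT LK GFPneg, 8 in KO LK GFPhi against KO LK GFPneg and 12 in KO LSK GFPhi against KO LK GFPneg. Over all 34945 probe sets the block called 6474, 12360, 10839 and 11453 in these comparisons, against 3531, 8913, 7150 and 7937 without it.

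**Figure D1:**
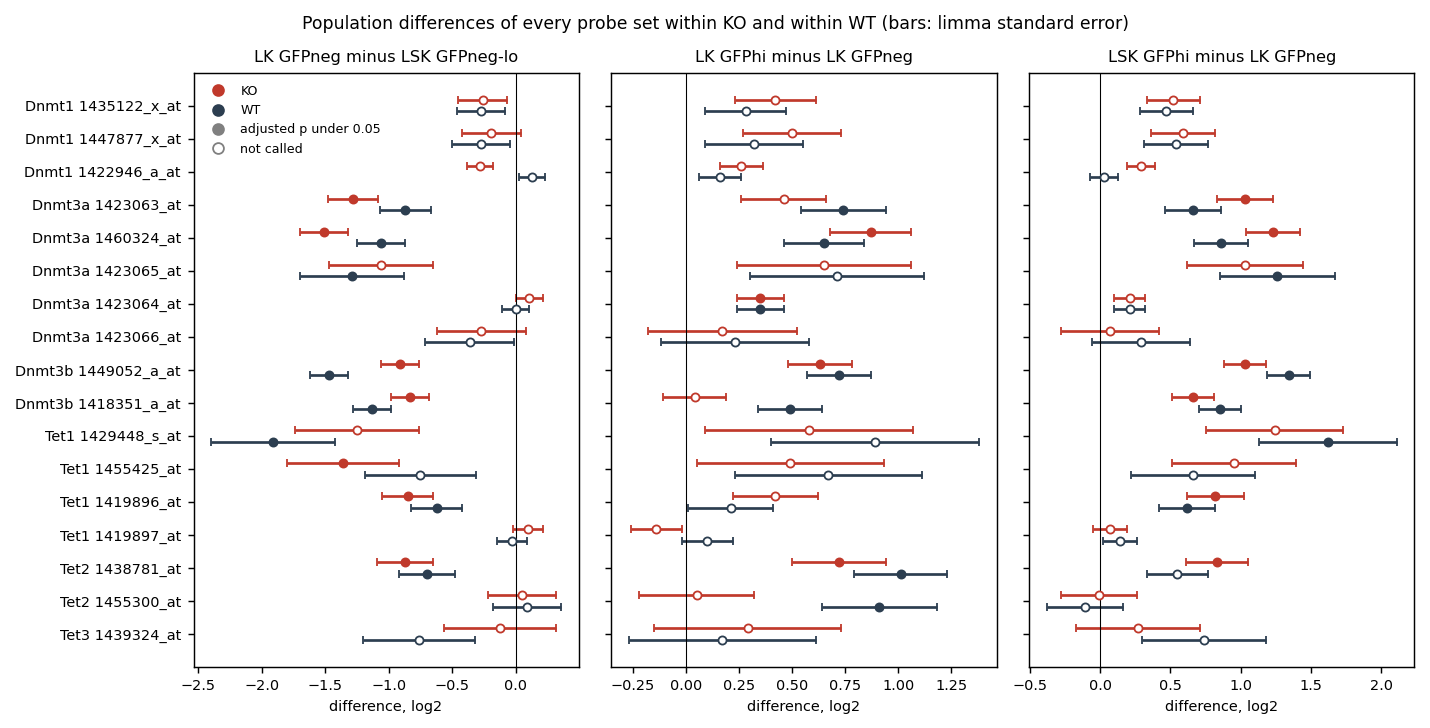
Difference of log2 signal between populations (x axis) for each of the 17 probe sets (y axis), with KO in red above WT in dark blue, bars for the limma standard error and filled points for adjusted p under 0.05. In the left panel the called points of Dnmt3a, Dnmt3b, Tet1 and Tet2 lie between −1.91 and −0.62, and the Dnmt1 points lie between −0.28 and 0.13.

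Differences between KO and WT were fewer and smaller. In LSK GFPneg-lo 1 of 17 probe sets was called, higher (background 1.58%, higher 0.89%). In LSK GFPhi 0 were called by limma (background 3.32%), with 1 at an unadjusted p under 0.05. In LK GFPneg 0 were called (background 1.77%), with 3 at an unadjusted p under 0.05. In LK GFPhi 3 were called, all lower (background 8.35%, lower 4.03%). Median KO minus WT differences of the 17 probe sets were −0.14 for LK GFPhi (0.05 over all probe sets), 0.01 for LK GFPneg (0.03 over all) and −0.07 for each LSK population (0.02 over all for GFPneg-lo and 0.00 for GFPhi). A test of whether the KO minus WT difference itself varied among the 4 populations called 0 of 17 (background 1.87%; 0 at an unadjusted p under 0.05; smallest adjusted p = 0.588). Under the replicate block that test called 1 probe set, 1455300_at of Tet2 (limma adjusted p = 0.0416), with 4.27% of all probe sets called.

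**Figure D2:**
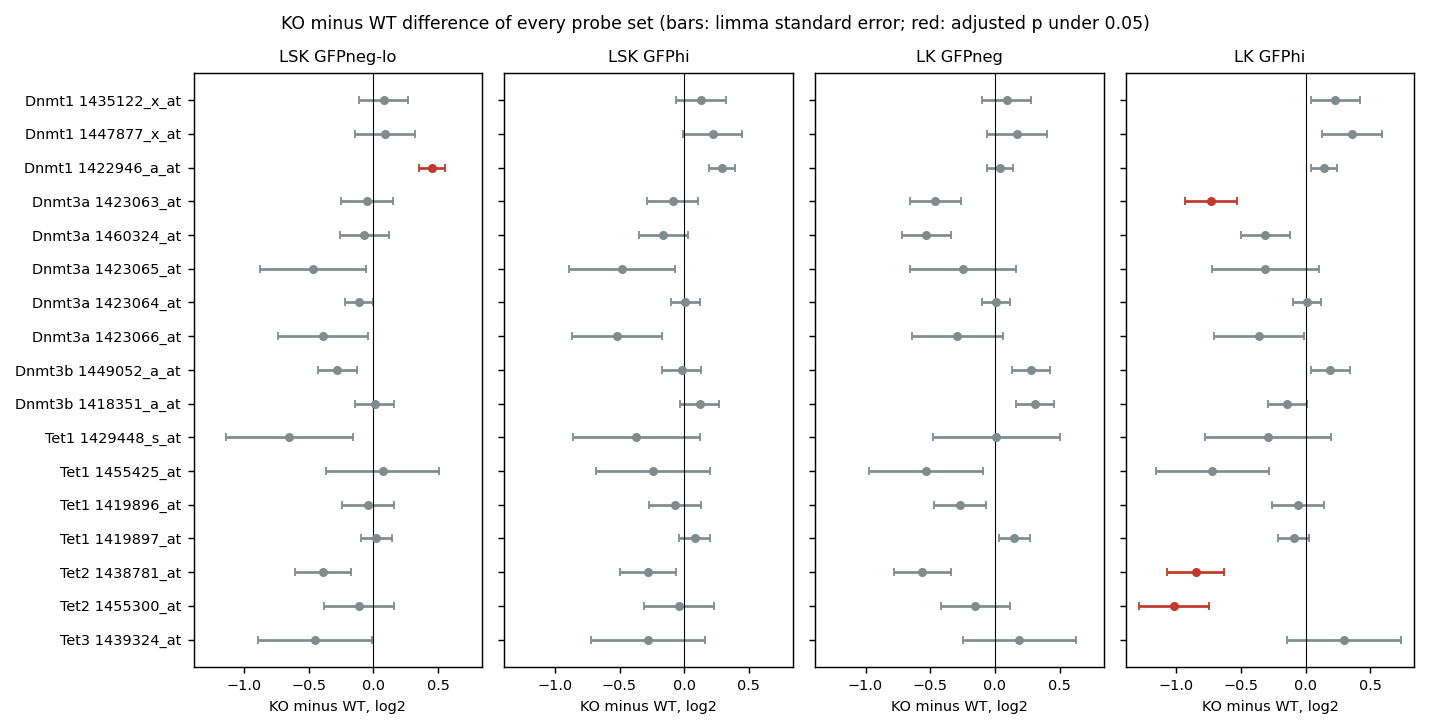
KO minus WT difference of log2 signal (x axis) for each probe set (y axis) in the 4 populations, with bars for the limma standard error and red for adjusted p under 0.05. The 4 red points are Dnmt1 1422946_a_at at 0.45 in LSK GFPneg-lo, and Dnmt3a 1423063_at at −0.73, Tet2 1438781_at at −0.85 and Tet2 1455300_at at −1.02 in LK GFPhi.

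Dnmt1, the maintenance methyltransferase (9:20907206-20959888 on GRCm38.p6), lay among the brightest probe sets of the array and moved little. Its brightest probe set, 1435122_x_at, averaged 12.52 over the 24 arrays, brighter than 99.1% of probe sets, and its 8 group means spanned 0.61. Group means were 12.55 ± 0.30 in KO and 12.47 ± 0.14 in WT LSK GFPneg-lo (SD, n = 3 each, as for all group means), 12.81 ± 0.06 in KO and 12.68 ± 0.17 in WT LSK GFPhi, 12.29 ± 0.37 in KO and 12.20 ± 0.32 in WT LK GFPneg, and 12.71 ± 0.15 in KO and 12.48 ± 0.29 in WT LK GFPhi. The order on this probe set in both genotypes ran from LSK GFPhi down to LK GFPneg, and no pair of neighbouring WT populations differed beyond the spread. The widest WT gap, LSK GFPhi minus LK GFPneg, was 0.47 ± 0.19 (SE; limma adjusted p = 0.0796), and with the replicate block it was called at the same size (0.47 ± 0.12, adjusted p = 0.00447). Probe set 1422946_a_at had another order: its correlation with 1435122_x_at was 0.284, and its WT means ran from 11.04 in LSK GFPneg-lo to 11.34 in LK GFPhi.

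One Dnmt1 probe set differed between the genotypes. On 1422946_a_at the KO LSK GFPneg-lo arrays read 11.70, 11.39 and 11.38, against 10.83, 11.08 and 11.22 on the WT arrays. All 3 KO arrays lay above all 3 WT arrays. The difference was 0.45 ± 0.10 (SE), 1.37-fold higher in KO, with limma adjusted p = 0.0287. Other lists moved in the same comparison. The 17 proliferation genes averaged 11.21 to 11.46 on KO arrays, all above the 10.77 to 11.14 of WT arrays, with a median difference of 0.33 beside 0.02 over all probe sets. Among them 1 was called, Rrm2, a subunit of the enzyme that makes deoxynucleotides (0.46 ± 0.11, limma adjusted p = 0.045), and under the replicate block 7 of the 17 were called higher. The block called 1319 of all 34945 probe sets here, against 553 without it. The granulocyte and monocyte progenitor list averaged 9.85 to 10.43 on KO arrays and 9.30 to 9.70 on WT arrays, and the early lymphoid list 7.31 to 7.54 on KO arrays and 8.0 to 8.32 on WT arrays. The mast cell and basophil list averaged 7.95 to 8.74 on KO arrays and 7.35 to 7.53 on WT arrays. The stroma and endothelium list averaged 7.18 to 7.83 and 6.22 to 6.87, and the stem cell list 10.41 to 10.69 and 9.92 to 10.25. The eosinophil and macrophage lists also lay higher on all KO arrays. KO and WT arrays overlapped on the erythroid, megakaryocyte, mature neutrophil, B lineage, and T and NK lists. The part of any of the lists in the Dnmt1 difference was not tested. The other 2 probe sets of Dnmt1 gave 0.08 ± 0.19 and 0.09 ± 0.23 in the same comparison, with overlapping arrays, and were not called. Of the 9 other settings tried for 1422946_a_at, 5 kept the call, and it was lost without KO replicate 1, WT replicate 1 or WT replicate 2, with adjusted p up to 0.274 over all settings. In LSK GFPhi the same probe set was 0.29 ± 0.10 higher in KO without passing the test (limma adjusted p = 0.196). All 3 Dnmt1 probe sets had positive KO minus WT values in all 4 populations, and the 2 ending in _x_at correlated at 0.987. The share of all probe sets that keep 1 sign in the 4 populations was not counted.

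Dnmt3a (12:3801559-3914443), a de novo methyltransferase, had signal well below its LSK level in the erythroid-type population. On its brightest probe set, 1423063_at, the KO LK GFPneg arrays read 8.31, 9.03 and 9.06, against 9.94, 10.12 and 10.17 in KO LSK GFPneg-lo. The WT LK GFPneg arrays read 9.23, 9.32 and 9.23, against 10.11, 9.87 and 10.41 in WT LSK GFPneg-lo. In both genotypes every LK GFPneg array lay below every LSK GFPneg-lo array. LK GFPneg minus LSK GFPneg-lo was −1.28 ± 0.20 in KO (SE; limma adjusted p = 0.000103) and −0.87 ± 0.20 in WT (adjusted p = 0.00337). On 1460324_at it was −1.51 ± 0.19 in KO and −1.06 ± 0.19 in WT, and on 1423065_at −1.06 ± 0.41 in KO, not called, and −1.29 ± 0.41 in WT, called. Under the replicate block the KO value of 1423065_at was called too (−1.06 ± 0.16, limma adjusted p = 3.78e-05). The call of 1423065_at in WT was lost without replicate 1 or 3 of WT LK GFPneg, or without replicate 2 or 3 of WT LSK GFPneg-lo.

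The WT order on 1423063_at was LSK GFPneg-lo (10.13 ± 0.27), LK GFPhi (10 ± 0.11), LSK GFPhi (9.92 ± 0.19) and LK GFPneg (9.26 ± 0.05). The first 3 did not differ from one another on this probe set by the test. LK GFPneg was apart from each of them: LK GFPhi minus LK GFPneg was 0.74 ± 0.20 (SE; limma adjusted p = 0.0152) and LSK GFPhi minus LK GFPneg 0.66 ± 0.20 (adjusted p = 0.0197). In KO the order was LSK GFPneg-lo, LSK GFPhi, LK GFPhi and LK GFPneg, with means of 10.08 ± 0.12, 9.83 ± 0.08, 9.27 ± 0.47 and 8.80 ± 0.43. Other Dnmt3a probe sets gave other WT orders. On 1423064_at LK GFPhi was called 0.35 above LSK GFPneg-lo (limma adjusted p = 0.0478), a call kept without only 1 of the 6 arrays. Under the replicate block, 1423065_at was called lower in LK GFPhi than in LSK GFPneg-lo (−0.58 ± 0.16, adjusted p = 0.0136) and in LSK GFPhi (−0.55 ± 0.16, adjusted p = 0.0294).

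In LK GFPhi, 1423063_at read 9.48, 9.59 and 8.73 in KO, against 9.87, 10.03 and 10.09 in WT. The groups did not overlap, and the lowest array was KO replicate 3. The difference was −0.73 ± 0.20 (SE), 1.66-fold lower in KO (limma adjusted p = 0.0302), and without KO replicate 3 it was −0.46 ± 0.18 (adjusted p = 0.191). The call was also lost without any 1 of the 3 WT arrays. The other 4 probe sets, all designed from the same expressed sequence, gave −0.31 ± 0.19, −0.31 ± 0.41, 0.01 ± 0.11 and −0.36 ± 0.35, and none was called. Without KO replicate 3 these values were −0.29 ± 0.21, −0.03 ± 0.45, 0.06 ± 0.12 and −0.04 ± 0.37. Probe set 1423064_at did not follow the others: over the 24 arrays its correlation with 1423063_at was −0.000712, and its LK GFPneg minus LSK GFPneg-lo differences were 0.11 ± 0.11 in KO and 0.00 ± 0.11 in WT. Probe set 1423066_at, in KO against WT LSK GFPhi, had a difference of −0.52 ± 0.35 (limma adjusted p = 0.786) that passed with the replicate block (−0.52 ± 0.14, adjusted p = 0.0401), although the numbers of that pair of groups did not meet the rule for pairing. Of the 5 Dnmt3a probe sets, 4 had negative KO minus WT values in all 4 populations, with those of 1423065_at and 1423066_at in LK GFPhi near 0 without KO replicate 3. Such signs were not counted over all probe sets.

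Dnmt3b (2:153649411-153687730), the other de novo methyltransferase, was lower in LK GFPneg than in either LSK population on both of its probe sets. On 1449052_a_at the KO LK GFPneg arrays read 10.71, 11 and 10.78, against 11.61, 11.70 and 11.91 in KO LSK GFPneg-lo. The WT LK GFPneg arrays read 10.59, 10.76 and 10.27, against 12.02, 12.06 and 11.97 in WT LSK GFPneg-lo. No LK GFPneg array reached any LSK array of its genotype. LK GFPneg minus LSK GFPneg-lo was −0.91 ± 0.15 in KO (SE; limma adjusted p = 0.000133) and −1.47 ± 0.15 in WT (adjusted p = 4.05e-07), a 2.78-fold lower signal in WT. The second probe set, 1418351_a_at, gave −0.83 ± 0.15 in KO and −1.13 ± 0.15 in WT, both called. These 4 calls were kept under every setting tried, leaving out single arrays included.

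The WT order on 1449052_a_at was LSK GFPneg-lo (12.01 ± 0.04), LSK GFPhi (11.88 ± 0.10), LK GFPhi (11.26 ± 0.32) and LK GFPneg (10.54 ± 0.25). The LSK populations did not differ by the test (−0.13 ± 0.15). LK GFPhi was 0.62 below LSK GFPhi (−0.62 ± 0.15, limma adjusted p = 0.0253, a call kept without only 1 of the 6 arrays) and 0.72 ± 0.15 above LK GFPneg (adjusted p = 0.00153). KO means kept the same order except at the top, with 11.74 ± 0.16 in LSK GFPneg-lo and 11.86 ± 0.13 in LSK GFPhi, then 11.45 ± 0.19 in LK GFPhi and 10.83 ± 0.15 in LK GFPneg. KO minus WT values of both probe sets lay between −0.28 and 0.31, and none was called. On 1449052_a_at the difference was −0.28 ± 0.15 in LSK GFPneg-lo (95% interval −0.59 to 0.04) and 0.28 ± 0.15 in LK GFPneg (−0.03 to 0.60).

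**Figure D3:**
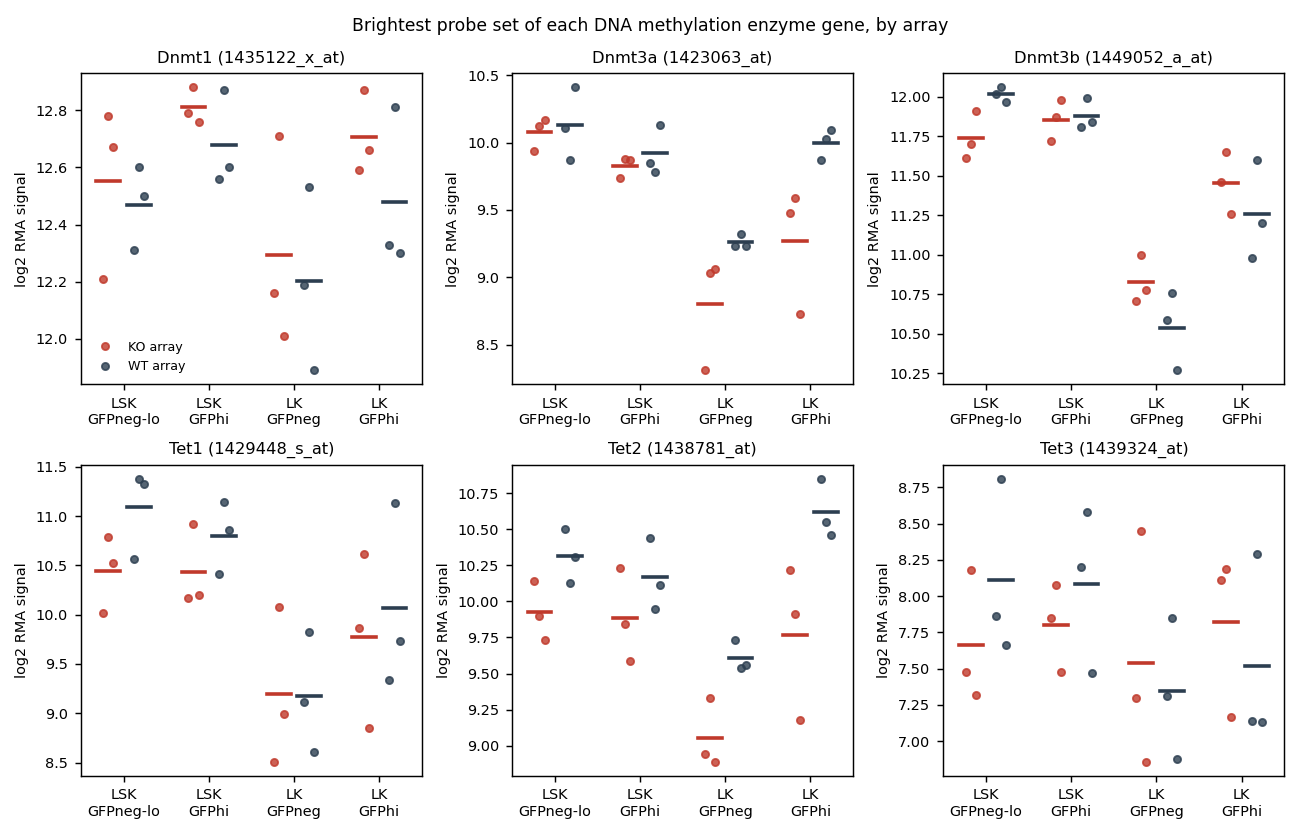
Log2 RMA signal (y axes, each with its own range) of the brightest probe set of each gene on every array, by population, with KO in red left of WT in dark blue and bars for the group means. The LK GFPneg points of Dnmt3a and Dnmt3b lie below the LSK points of their genotype, and the WT LK GFPhi points of Tet2 lie above the KO points beside them.

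Tet1 (10:62804570-62887469), a dioxygenase of methylated cytosine with a CXXC domain that binds unmethylated CG-rich DNA, also had lower signal in LK GFPneg. On 1429448_s_at the KO LK GFPneg arrays read 8.51, 10.08 and 8.99, against 10.02, 10.79 and 10.52 in KO LSK GFPneg-lo. The WT LK GFPneg arrays read 9.11, 9.82 and 8.61, against 10.56, 11.38 and 11.33 in WT LSK GFPneg-lo. The groups overlapped in KO and did not in WT. The LK GFPneg minus LSK GFPneg-lo difference was −1.25 ± 0.49 in KO (SE; limma adjusted p = 0.0845) and −1.91 ± 0.49 in WT (adjusted p = 0.00707), the largest among the WT values of the 17 probe sets, at 3.75-fold. The replicate block gave a call in KO as well (−1.25 ± 0.29, adjusted p = 0.00287). Without the block, LSK GFPhi minus LK GFPneg on this probe set was 1.24 in KO (limma adjusted p = 0.0807) and 1.62 in WT (adjusted p = 0.0187).

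Probe set 1419896_at gave −0.85 ± 0.20 in KO (limma adjusted p = 0.00526) and −0.62 ± 0.20 in WT (adjusted p = 0.0318). The WT call was lost in 5 of the 6 fits that left out 1 array, with adjusted p up to 0.166 over all settings. Probe set 1455425_at gave −1.36 ± 0.44 in KO (adjusted p = 0.0362) and −0.75 ± 0.44 in WT (adjusted p = 0.263), and with the replicate block the WT value was called (−0.75 ± 0.24, adjusted p = 0.0206). The KO call on 1455425_at was kept without 2 of its 6 arrays only. The dim probe set 1419897_at, brighter than 34.2% of probe sets, had group means within 0.22 of one another. The WT order on 1429448_s_at ran LSK GFPneg-lo (11.09 ± 0.46), LSK GFPhi (10.80 ± 0.37), LK GFPhi (10.07 ± 0.95) and LK GFPneg (9.18 ± 0.61), and no neighbours differed by the test. LK GFPhi minus LK GFPneg in WT was called under the block (0.89 ± 0.29, limma adjusted p = 0.0344). In KO the means were 10.44 ± 0.39, 10.43 ± 0.43, 9.78 ± 0.89 and 9.19 ± 0.81 in the same order of populations.

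None of the Tet1 probe sets was called between KO and WT. The values nearest to a call were −0.72 ± 0.44 on 1455425_at in LK GFPhi (limma adjusted p = 0.35) and −0.65 ± 0.49 on 1429448_s_at in LSK GFPneg-lo (adjusted p = 0.865, 95% interval −1.67 to 0.38). Under the block the value of 1455425_at in LK GFPhi was called (−0.72 ± 0.24, adjusted p = 0.0435).

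Tet2 (3:133463677-133545136), the dioxygenase that lacks the CXXC domain of its relatives, was the gene with the widest gap between KO and WT, and the gap lay in LK GFPhi. On 1438781_at the KO LK GFPhi arrays read 10.22, 9.91 and 9.18, against 10.85, 10.55 and 10.46 on the WT arrays. On 1455300_at the KO arrays read 9.08, 8.39 and 8.34, against 10.07, 9.12 and 9.67. On both probe sets all 3 KO arrays lay below all 3 WT arrays. The differences were −0.85 ± 0.22 (SE), 1.80-fold lower in KO (limma adjusted p = 0.0195), and −1.02 ± 0.27, 2.02-fold lower in KO (adjusted p = 0.022).

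KO replicate 3, the array with the high eosinophil signal, was the lowest on both probe sets. Without it the differences were −0.55 ± 0.19 (limma adjusted p = 0.13) and −0.89 ± 0.30 (adjusted p = 0.11), and neither was called. Both calls were also lost without WT replicate 1, and that of 1455300_at without KO replicate 2 or WT replicate 3. They were lost as well with Eif2s3y as a covariate or with the 6 arrays of the population alone. Eif2s3y signal differed between the genotypes, so the fit with it cannot fully separate the 2. Marker lists moved in the same comparison. The mast cell and basophil list of 6 genes averaged 9.32 to 10.34 on KO arrays and 7.35 to 7.94 on WT arrays, the eosinophil list of 4 genes 6.83 to 9.80 and 5.46 to 5.69, the stem cell list of 8 genes 8.25 to 8.72 and 6.69 to 7.08, and the early lymphoid list of 9 genes 7.53 to 8.30 and 9.47 to 9.82. The mature neutrophil list of 7 genes averaged 7.15 to 7.68 on KO arrays and 5.80 to 6.26 on WT arrays, with 5 called higher. The megakaryocyte list of 6 genes averaged 8.66 to 9.07 on KO arrays and 7.02 to 7.68 on WT arrays, with 2 called higher, and the erythroid list of 8 genes 7.91 to 8.77 on KO arrays and 7.48 to 7.80 on WT arrays. The granulocyte and monocyte progenitor list of 7 genes averaged 12.32 to 12.43 on KO arrays and 12.09 to 12.46 on WT arrays. The part of these lists in the Tet2 and Dnmt3a differences was not tested.

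In the other populations, Tet2 was not called between KO and WT. On 1438781_at the KO minus WT value was −0.39 ± 0.22 in LSK GFPneg-lo, −0.28 ± 0.22 in LSK GFPhi and −0.56 ± 0.22 in LK GFPneg (limma adjusted p = 0.346). In LK GFPneg the KO arrays read 8.94, 9.33 and 8.89, all below the WT arrays at 9.73, 9.54 and 9.56. On 1455300_at the values were −0.11, −0.04 and −0.15 in those populations, each with SE 0.27. Both Tet2 probe sets had negative KO minus WT values in all 4 populations, a trait not counted over all probe sets.

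Across WT populations the Tet2 probe sets shared their peak. LK GFPhi averaged 10.62 ± 0.20 on 1438781_at, against 10.31 ± 0.19 in LSK GFPneg-lo, 10.17 ± 0.25 in LSK GFPhi and 9.61 ± 0.10 in LK GFPneg. LK GFPhi averaged 9.62 ± 0.48 on 1455300_at, against 8.71 ± 0.28 in LK GFPneg, 8.62 ± 0.47 in LSK GFPneg-lo and 8.59 ± 0.15 in LSK GFPhi. LK GFPhi minus LK GFPneg was 1.01 ± 0.22 (SE; limma adjusted p = 0.00233) and 0.91 ± 0.27 (adjusted p = 0.0223) on these probe sets. The call on 1455300_at was kept without 2 of the 6 arrays only. On 1438781_at the neighbours at the top of the order did not differ by the test, and LK GFPneg lay 0.70 below LSK GFPneg-lo (−0.70 ± 0.22, adjusted p = 0.0233, a call kept without 2 of the 6 arrays only). On 1455300_at the lower 3 populations did not differ from one another, and LK GFPhi was 1.03 ± 0.27 above LSK GFPhi (adjusted p = 0.0388) and 1.0 ± 0.27 above LSK GFPneg-lo (adjusted p = 0.0182). The call against LSK GFPhi was kept without 1 of the 6 arrays only, and that against LSK GFPneg-lo without 3 of the 6. Every call of WT LK GFPhi on 1455300_at was lost with the compared groups alone. In KO, 1455300_at had no such peak: LK GFPhi averaged 8.60 ± 0.42, and LSK GFPneg-lo, LSK GFPhi and LK GFPneg averaged 8.51, 8.55 and 8.56. KO LK GFPhi minus KO LK GFPneg was 0.05 ± 0.27 on 1455300_at and 0.72 ± 0.22 on 1438781_at (adjusted p = 0.0239).

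Tet3 (6:83362373-83457208), the third dioxygenase, was seen by 1 probe set, 1439324_at, and none of its differences was called in the fit without the replicate block. Its group means were 7.66 ± 0.45 in KO and 8.11 ± 0.62 in WT LSK GFPneg-lo, 7.80 ± 0.30 in KO and 8.09 ± 0.56 in WT LSK GFPhi, 7.54 ± 0.82 in KO and 7.35 ± 0.49 in WT LK GFPneg, and 7.82 ± 0.57 in KO and 7.52 ± 0.67 in WT LK GFPhi. The spread within groups was as wide as the gaps between them. The KO minus WT values ran from −0.45 ± 0.44 in LSK GFPneg-lo to 0.30 ± 0.44 in LK GFPhi, with 95% intervals of −1.36 to 0.47 and −0.61 to 1.22 in these populations. WT LK GFPneg minus WT LSK GFPneg-lo was called under the block at −0.76 ± 0.18 (limma adjusted p = 0.0028), where the fit without the block gave −0.76 ± 0.44 (adjusted p = 0.252). The block also called Tet3 in WT LSK GFPhi minus WT LK GFPneg (0.74 ± 0.18, adjusted p = 0.0033) and in WT LK GFPhi minus WT LSK GFPneg-lo (−0.59 ± 0.18, adjusted p = 0.0284).

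Part of that spread followed the replicate number given in the titles. The array numbered 2 was the highest of its group in 8 of 8 groups for Tet3, for Tet1 1429448_s_at, for Dnmt3a 1423065_at and 1423066_at and for both Dnmt1 probe sets ending in _x_at. For Tet3 the array numbered 3 was the lowest in 8 of 8 groups. Tet1 1455425_at ran the other way, with the array numbered 1 highest and the array numbered 2 lowest in 7 of 8 groups each. On the Tet2 probe sets the array numbered 1 was the highest in 7 of 8 groups. Arrays of one number therefore shared deviations across populations and genotypes, and probe sets of one gene, Tet1, did not share their direction.

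**Figure D4:**
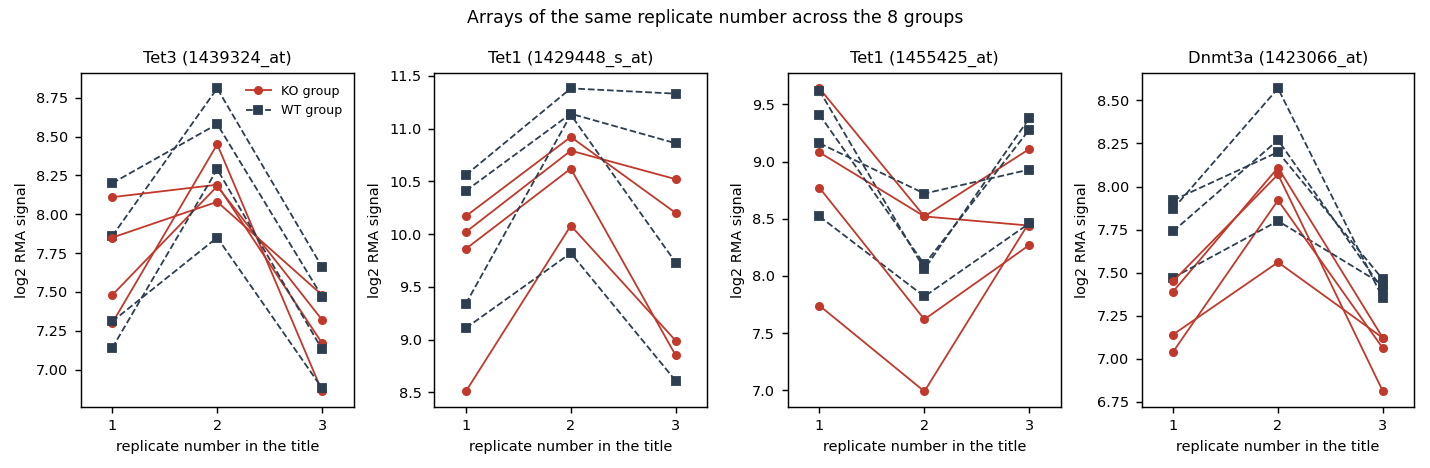
Log2 RMA signal (y axes) of 4 probe sets by replicate number (x axis), with 1 line for each of the 8 groups, KO in red with solid lines and WT in dark blue with dashed lines. Replicate 2 is the highest in 8 of 8 groups for Tet3, Tet1 1429448_s_at and Dnmt3a 1423066_at, and the lowest in 7 of 8 groups for Tet1 1455425_at.

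Genes that work with these enzymes were read on 1 probe set each, the brightest. Of 12 measured partners that target or recruit the methyltransferases, such as Uhrf1, which brings Dnmt1 to newly replicated DNA, 0 were called between KO and WT by limma in any of the 4 populations. The same held for 7 methyl-CpG readers and for 7 genes of the methyl donor cycle, which makes and recycles S-adenosylmethionine. Their median KO minus WT values lay between −0.22 and 0.18. Under the block, 2 partners and 1 reader were lower in KO LK GFPhi, and 1 reader was lower in each KO LSK population. Among 14 genes of demethylation, cofactor supply and base excision repair, 1 was called in LSK GFPneg-lo (higher), 2 in LSK GFPhi (higher), 1 in LK GFPneg (lower) and 2 in LK GFPhi (higher). Of the 17 proliferation genes, Rrm2 was called higher in both KO LSK populations (0.45 ± 0.11 in LSK GFPhi, limma adjusted p = 0.0291). Top2a, the topoisomerase of dividing cells, was called lower in KO LK GFPhi (−0.65 ± 0.16, adjusted p = 0.0138). Without KO replicate 3 its difference was −0.72 ± 0.18 (adjusted p = 0.024). No proliferation gene was called in LK GFPneg. Under the block, 7 were higher in KO LSK GFPneg-lo, 2 were higher in KO LSK GFPhi and 5 were lower in KO LK GFPhi. Over all probe sets, 1.58%, 3.32%, 1.77% and 8.35% were called in LSK GFPneg-lo, LSK GFPhi, LK GFPneg and LK GFPhi. Those shares are 553, 1161, 618 and 2918 of 34945 probe sets, and the block called 1319, 2037, 1259 and 6880.

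Gadd45g, a stress-induced protein that has been linked to active demethylation, read 7.55, 7.93 and 8.22 in KO LSK GFPneg-lo, against 6.37, 6.90 and 6.83 in WT. It read 6.03, 6.83 and 6.68 in KO LSK GFPhi, against 5.62, 5.49 and 5.55 in WT. All KO arrays lay above all WT arrays in both, and KO minus WT was 1.20 ± 0.25 (SE; limma adjusted p = 0.013) and 0.96 ± 0.25 (adjusted p = 0.0353). In LK GFPhi the difference was 1.17 ± 0.25 (adjusted p = 0.00539), and 0.98 ± 0.27 without KO replicate 3 (adjusted p = 0.042). Gadd45g signal was dim: WT means were 5.55 in LSK GFPhi and 5.45 in LK GFPhi, below the array medians of 6.8 to 6.94. In LK GFPneg it averaged 7.51 in KO and 6.77 in WT and was not called. Idh1, the cytosolic isocitrate dehydrogenase that makes the 2-oxoglutarate used by Tet enzymes, read 11.57, 11.77 and 11.73 in KO LSK GFPhi, against 10.45, 10.70 and 10.56 in WT. Its KO minus WT value was 1.12 ± 0.15 there (adjusted p = 8.3e-05) and 0.66 ± 0.15 in LK GFPhi (adjusted p = 0.00944; 0.68 ± 0.17 without KO replicate 3, adjusted p = 0.0292). Cxxc5, a CXXC protein reported to bind Tet2, was lower in KO LK GFPneg by −0.60 ± 0.15 (adjusted p = 0.0447). In KO LSK GFPhi the granulocyte and monocyte progenitor list averaged 11.89 to 12.02, against 11.10 to 11.49 in WT. The stem cell list averaged 9.06 to 9.42 against 7.72 to 8.03. The early lymphoid list averaged 8.40 to 8.65 against 9.98 to 10.12, with 9 of 9 called lower. The mast cell and basophil, megakaryocyte and mature neutrophil lists were higher too, and the erythroid list overlapped. The part of the lists in the Gadd45g and Idh1 differences was not tested.

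Between WT LK GFPneg and WT LSK GFPneg-lo, 12.5% of all probe sets were called higher and 11.5% lower. Of 12 partners, 3 were higher and 0 lower. They were Uhrf1 (0.55 ± 0.13, limma adjusted p = 0.0048), Setdb1 (0.65 ± 0.21, adjusted p = 0.0315) and Hells, a chromatin remodeller needed for DNA methylation (0.73 ± 0.26, adjusted p = 0.0443). Of 7 donor cycle genes, 4 were higher and 0 lower, led by Mthfd1 (1.17 ± 0.14) and Ahcy, which clears S-adenosylhomocysteine (0.91 ± 0.12). Of 7 readers, Mbd2 (1.27 ± 0.13) and Mbd3 (0.97 ± 0.25) were higher and Zbtb4 was lower (−1.79 ± 0.25). Of the 14 demethylation genes, Gadd45a was higher (2.62 ± 0.51), and Cxxc5 (−2.21 ± 0.15), Idh1 (−0.96 ± 0.15) and Gadd45b (−0.77 ± 0.23) were lower. Of 17 proliferation genes, 9 were higher in WT LK GFPneg and 0 lower, with a median difference of 0.64 beside 0.04 over all probe sets. Under the block, 5 of 12 partners, 3 of 7 readers, 4 of 7 donor cycle genes, 3 of 14 demethylation genes and 12 of 17 proliferation genes were higher, and 1 reader and 3 demethylation genes were lower. The block called 11669 of all 34945 probe sets in this comparison, in either direction, against 8388 without it. WT LSK GFPhi against WT LK GFPneg gave 0 partners higher and 1 lower, and under the block 1 higher and 4 lower. Over all probe sets 8913 were called there, and 12360 under the block. In KO, 2 of 17 proliferation genes were higher in LK GFPneg than in LSK GFPneg-lo and 0 lower, with 8.86% of all probe sets called higher.

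Among themselves, the brightest probe sets of the 6 genes ran from a Pearson correlation of 0.198 between Dnmt1 and Tet2 to 0.858 between Dnmt3b and Tet1 over the 24 arrays, which share the population steps and the replicate numbers described above. Dnmt3a correlated at 0.772 with both Tet1 and Tet2. By the same measure, the genes most like each member among 8829 genes of at least median signal were Rbbp4 (0.935), Serf2 and Washc2 for Dnmt1, Kantr (0.922), Dsel and Phf21a for Dnmt3a, Nfic (0.956), Sash1 and Abhd4 for Dnmt3b, Prdm2 (0.912), Aak1 and Smad4 for Tet1, Dip2b (0.913), Rere and Gbp3 for Tet2, and Pced1b (0.871), Zfp628 and Wdtc1 for Tet3.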

How the data were processed

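Total RNA of sorted mouse cells was labelled from 6 ug and hybridised to Affymetrix arrays, per the labels' protocols. The deposited values are log2 expression from RMA, per the submitters' processing notes, and the sources used here give no software version. They were used as deposited, with no count or depth behind them. Precision is limited by the number of arrays. Of 45101 probe sets, 64 controls, 932 with several gene symbols and 9160 with none were left out, and 34945 were tested with no filter on dim signal.

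Group means of all 24 arrays were fitted by lmFit and eBayes of limma (version 3.58.1, under R 4.3.3), using Benjamini-Hochberg adjustment over all probe sets tested and a threshold of 0.05. The fit was tested on simulated data with independent noise on each array. Those data lack the shared deviations of same-numbered arrays, so that test does not cover them. An exact permutation test of 3 arrays against 3 cannot go below p = 0.1. Intervals are 95%. Other settings were a replicate block, also within genotype, the compared groups alone, a probe set filter, other scaling, array weights, Eif2s3y as a covariate and single arrays left out. Replicate numbers come from the titles. Deviations of same-numbered arrays from their group means correlated above 0.1 for every pair in 11 of 13 comparisons, the lowest at 0.151. The exceptions were KO against WT in LSK GFPhi (lowest 0.0277) and KO LSK GFPhi against KO LK GFPneg (−0.0167).

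The 6 genes, the gene lists and the comparisons were chosen with earlier results of these data known, and the KO population comparisons were added after the values were seen. All member probe sets are reported. Called list genes were named up to 4 for each list and comparison, smallest adjusted p first, and the 3 most correlated named genes were taken for each member. Gene positions and promoter sequences are from RefSeq on GRCm38.p6.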

Additional observations from a re-analysis of the deposited data

How the results depend on the processing

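Each group had 3 arrays, standard errors of the 17 probe sets ran from 0.10 to 0.49 in the fit of all arrays. No member value turned its sign past the threshold under any setting, and 3263 of these refitted values stayed on their side of it, 102 became calls and 129 lost theirs. The cause of the changes was not tested, except that fewer arrays or fewer probe sets entered some fits. Counts below are member probe sets called at an adjusted p under 0.05 in limma, with the count of the fit reported above in parentheses. With the compared groups alone, KO against WT gave 0 in LSK GFPneg-lo (1) and 0 in LK GFPhi (3), WT LK GFPhi gave 2 against WT LSK GFPneg-lo (4), 0 against WT LSK GFPhi (2) and 3 against WT LK GFPneg (7), and KO LK GFPhi gave 1 against KO LK GFPneg (4). Over all probe sets those comparisons gave, in that order, 200 (553), 574 (2918), 2134 (3531), 117 (1102), 4387 (5271) and 3739 (7150). With Eif2s3y as a covariate, KO against WT gave 0 in LSK GFPneg-lo and 0 in LK GFPhi, with 279 and 2155 over all probe sets. Eif2s3y signal differed between the genotypes, so that fit cannot fully separate it from the genotype. Further quantile normalization gave 0 in LSK GFPneg-lo, 1 in LK GFPhi, and 1 for WT LK GFPhi against WT LSK GFPhi. Over all probe sets it gave 603, 2958 and 1168. Trend and robust moderation gave 0 in LSK GFPneg-lo, with 530 over all probe sets. Median centring gave 2 for KO LK GFPhi against KO LK GFPneg, with 7594 over all probe sets. Array weights gave 3 for KO against WT in LK GFPneg (0), 8 for WT LK GFPhi against WT LSK GFPneg-lo, 11 for KO LK GFPneg against KO LSK GFPneg-lo (7), 10 for KO LK GFPhi against KO LK GFPneg, and 11 for KO LSK GFPhi against KO LK GFPneg (6). Calls over all probe sets rose too, to 1626 (618), 6922 (3531), 11794 (6833), 9410 (7150) and 12656 (7937) in that order. With only the brightest probe set of each gene, 6 in all, KO against WT gave 0 in LSK GFPneg-lo, WT LK GFPneg gave 4 against WT LSK GFPneg-lo (8), WT LK GFPhi gave 1 against each WT LSK population and 3 against WT LK GFPneg, WT LSK GFPhi gave 3 against WT LK GFPneg (7), KO LK GFPneg gave 3 against KO LSK GFPneg-lo, and against KO LK GFPneg the KO LK GFPhi and KO LSK GFPhi counts were 2 and 3. Over all 18193 genes the counts were 389, 4934, 2299 (LSK GFPneg-lo) and 827 (LSK GFPhi), 3380, 5288, 4125, 4256 and 4720 in that order.

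The replicate block gave 1 for KO against WT in LSK GFPhi (0), 8 for WT LK GFPhi against WT LSK GFPneg-lo, 12 for WT LSK GFPhi against WT LK GFPneg, 8 for KO LK GFPhi against KO LK GFPneg, 12 for KO LSK GFPhi against KO LK GFPneg and 1 for the test among populations (0). The block within genotype gave 7, 11, 8, 12 and 1 for the last 5 of these, and 4 for WT LK GFPhi against WT LSK GFPhi. Calls over all probe sets rose too, with the replicate block to 2037 (1161), 6474 (3531), 12360 (8913), 10839 (7150), 11453 (7937) and 1491 (654). With the block within genotype they were 6598, 12428, 10959, 11523, 1632 and 3992 (1102). The block moved no other count of member calls by over 1.5 times. Over fits that left out 1 array, KO against WT counts ran 0 to 1 in LSK GFPneg-lo, 0 to 0 in LSK GFPhi, 0 to 1 in LK GFPneg and 0 to 3 in LK GFPhi. Between WT populations they ran 5 to 7 for LK GFPneg against LSK GFPneg-lo, 2 to 5 for LK GFPhi against LSK GFPneg-lo, 0 to 2 for LK GFPhi against LSK GFPhi, 2 to 5 for LK GFPhi against LK GFPneg and 3 to 8 for LSK GFPhi against LK GFPneg. Between KO populations they ran 6 to 8 for LK GFPneg against LSK GFPneg-lo, 2 to 6 for LK GFPhi against LK GFPneg and 5 to 10 for LSK GFPhi against LK GFPneg. The test among populations gave 0 to 0. In the same order, KO against WT counts over all probe sets ran 326 to 502, 774 to 965, 370 to 609 and 1618 to 3460. Those between WT populations ran 5986 to 7630, 2288 to 4589, 345 to 2535, 4083 to 4751 and 6514 to 8905. Those between KO populations ran 5243 to 7650, 4994 to 8734 and 5736 to 9275, and the test among populations gave 500 to 719.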
